A study of Mus musculus with 17 samples.

Results

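Cd34 and 8 transcription or cell cycle regulators of early haematopoiesis (Myb, Gata2, Meis1, Hoxa9, Sox4, Erg, Runx1 and Cdk6) were followed across 17 arrays of sorted mouse cells, as 9 of the 22180 genes measured. The 9 genes were listed by name from what is known of stem and progenitor cells, with earlier results of these data known. Each is read from 1 probe set of an Affymetrix mouse gene array, with a second probe set given for Myb and Sox4. Monocytes came from the spleens of CD11c.DTR mice, in which the CD11c promoter drives the diphtheria toxin receptor, and were sorted 48 h after an injection of PBS (PBS-Ly6C+ monocytes, 4 arrays) or diphtheria toxin (DT-Ly6C+ monocytes, 4 arrays), the toxin removing the cells that express CD11c. A further group of splenic Ly6C+ monocytes had been induced with growth factors (G-CSF-Ly6C+ monocytes, 3 arrays), for which the labels name Flt3L and G-CSF and the study's methods describe G-CSF given to wild-type mice. Splenic Ly6Cneg monocytes (3 arrays, named 2, new and pool) are labelled as taken from PBS-injected mice, whereas the study describes C57BL/6 mice. Common monocyte progenitors (cMoPs, 3 arrays) came from the bone marrow of untreated C57BL/6 mice. Splenic Ly6C+ cells of PBS- and DT-injected mice were sorted as lineage-negative CD11b+ cells with high CD115 and Ly6C, and cMoPs as lineage-negative CD117+ CD115+ Ly6C+ cells without CD135 and CD11b. For the G-CSF-Ly6C+ cells the study names lineage-negative CD11b+ Ly6C+ cells and no gate on CD115. All mice are labelled C57BL/6, aged 8 to 12 weeks. Each population was sorted from single or pooled mice in separate experiments, and the labels do not say which array came from which mouse, so p-values measure the spread between arrays. Array names fall into 2 series, G32 (8 arrays: all cMoP and Ly6Cneg arrays, 1 DT and 1 PBS array) and JS (9 arrays: 3 DT, 3 PBS and 3 G-CSF), and PBS arrays of the 2 series are kept apart throughout.

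Blood formation starts from stem and multipotent cells that depend on a small set of transcription factors. The sialomucin CD34 is carried by many, but not all, of these early cells. GATA2, ERG and RUNX1 bind together at the regulatory elements of these cells, HOXA9 and its TALE partner MEIS1 maintain their growth, MYB and SOX4 are needed for the proliferation of immature cells of several lineages, and CDK6 drives entry into the cell cycle. Most of these genes are switched off as cells become mature monocytes, while RUNX1 stays in use through myeloid differentiation. The cMoP, which gives rise to monocytes in the bone marrow, is sorted as a cell that still carries the stem cell factor receptor Kit.

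The JS PBS arrays stood apart from the remaining Ly6C+ arrays in marker genes other than the 9. Against the JS DT arrays, 6 of 7 measured monocyte genes were lower in JS PBS and 5 of 5 early granule genes, 9 of 9 cell cycle genes, 5 of 7 neutrophil genes, 5 of 7 mast cell and basophil genes and 4 of 7 T cell genes were higher. Of all genes, 9.46% were lower and 10.0% higher in JS PBS. The mean log2 level of the monocyte list was 8.86 to 8.97 in JS PBS, 11.22 to 11.24 in JS DT and 11.21 in the single G32 PBS array, and that of the early granule list was 11.37 to 11.48, 6.18 to 6.36 and 6.30. Across all 22180 genes the G32 PBS array correlated with the JS DT arrays at 0.974 to 0.976 and with the JS PBS arrays at 0.919 to 0.923. The JS PBS arrays therefore do not show the marker levels of their label, and for each of the 9 genes the value of the G32 PBS array is given beside theirs.

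Cd34, the gene of a surface sialomucin of many early haematopoietic cells, fell at 2 separate levels across the arrays. Its log2 values were 10.64, 10.38 and 10.42 in cMoPs, 10.08, 10.36 and 10.30 in the JS PBS arrays and 5.59 in the G32 PBS array. In DT-Ly6C+ monocytes it read 5.54, 4.99 and 5.75 on the JS arrays and 5.44 on the G32 array. G-CSF-Ly6C+ monocytes read 5.20, 5.60 and 5.70, and Ly6Cneg monocytes 5.49, 5.80 and 5.34. The 6 arrays of cMoPs and JS PBS cells thus lay between 10.08 and 10.64 and the 11 others between 4.99 and 5.80, with no overlap. Cd34 fell by 4.82 on the log2 scale from JS PBS to JS DT (28.2-fold, SE 0.19, adjusted p = 1.43e-10) and was 4.94 higher in cMoPs than in Ly6Cneg monocytes (SE 0.19, adjusted p = 2.5e-11). Between the G32 DT and G32 PBS arrays, 1 of each, the difference was -0.16.

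Cd34 lies on chromosome 1 (GRCm38, 194938821 to 194961292), and its promoter window of 300 bases, from 250 before to 50 after the RefSeq start, is shown because its values left no array between 5.80 and 10.08. In this and the following windows capitals mark GATAA (GATA factors), AACTG (MYB), TGTGGT (RUNX), GGAAG (ETS factors such as ERG) and TGACAG (TALE factors such as MEIS1), each on either strand. In the Cd34 window (chr1:194938571-194938870, plus strand, GRCm38.p6) the letters matched 1 GATAA and 1 GGAAG, the latter on the opposite strand as CTTCC.
Cd34 promoter: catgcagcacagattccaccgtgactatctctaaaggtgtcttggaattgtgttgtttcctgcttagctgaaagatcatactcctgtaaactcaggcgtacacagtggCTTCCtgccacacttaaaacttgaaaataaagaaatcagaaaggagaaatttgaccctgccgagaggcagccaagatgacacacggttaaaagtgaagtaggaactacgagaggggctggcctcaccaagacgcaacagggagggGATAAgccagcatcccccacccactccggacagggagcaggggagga

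Myb, which keeps immature haematopoietic cells cycling, followed Cd34 closely. The probe set with the higher mean read 11.43, 11.33 and 11.49 in cMoPs, 11.02, 11.01 and 10.87 in the JS PBS arrays and 5.66 in the G32 PBS array. Ly6Cneg monocytes read 5.06, 6.36 and 4.87, the array named new being the highest of the 11 low arrays. DT-Ly6C+ monocytes read 5.91, 5.69 and 5.82 (JS) and 5.21 (G32), and G-CSF-Ly6C+ monocytes 5.10, 6.05 and 5.20. Myb fell by 5.16 from JS PBS to JS DT (35.7-fold, SE 0.30, adjusted p = 5.18e-09), the largest fall of the 9 genes by the probe sets with the higher mean, and was 5.98 higher in cMoPs than in Ly6Cneg monocytes (SE 0.30, adjusted p = 4.56e-10). The second Myb probe set correlated with the first at 0.987 over the 17 arrays and gave smaller differences of the same direction, with a fall of 4.05 from JS PBS to JS DT (SE 0.18) and a rise of 4.44 from Ly6Cneg monocytes to cMoPs (SE 0.18). By this second probe set Myb fell less than Cd34 did. On that probe set the cMoP arrays read 10.32 to 10.64, the JS PBS arrays 9.96 to 10.12 and all others 5.45 to 6.29. The Myb promoter window (chr10:21160935-21161234, minus strand), shown as the counterpart to Cd34 with a like pattern of expression, has a GC content of 75.0% and none of the 5 sets of letters.
Myb promoter: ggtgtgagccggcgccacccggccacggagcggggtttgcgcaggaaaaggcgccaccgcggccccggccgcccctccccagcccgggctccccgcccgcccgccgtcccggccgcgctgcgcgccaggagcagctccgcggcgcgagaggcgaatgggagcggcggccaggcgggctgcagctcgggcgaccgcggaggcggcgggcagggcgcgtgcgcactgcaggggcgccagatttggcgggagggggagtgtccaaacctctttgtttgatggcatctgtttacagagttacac

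Sox4, a SoxC transcription factor of immature lymphoid and myeloid cells, separated the same arrays. It read 9.09, 9.5 and 9.05 in cMoPs and 9.27, 9.02 and 9.03 in the JS PBS arrays, whose ranges overlapped, against 4.81 in the G32 PBS array. DT-Ly6C+ monocytes read 5.16, 4.73 and 5.20 (JS) and 5.02 (G32), G-CSF-Ly6C+ monocytes 4.59, 4.84 and 5.12, and Ly6Cneg monocytes 4.83, 5.78 and 4.99. The gap between the high and the low arrays was again free of any array. From JS PBS to JS DT Sox4 fell by 4.08 (16.9-fold, SE 0.23, adjusted p = 3.23e-09), and it was 4.01 higher in cMoPs than in Ly6Cneg monocytes (SE 0.23, adjusted p = 1.38e-09). Its second probe set gave -3.56 (SE 0.17) and 3.11 (SE 0.17) for the same comparisons. The Sox4 window (chr13:28953650-28953949, minus strand), shown because both it and that of Cd34 hold the GATA and ETS letters, matched GATAA once and GGAAG 3 times. Windows of Hoxa9 and Erg hold both sets of letters as well, and that of Myb holds neither.
Sox4 promoter: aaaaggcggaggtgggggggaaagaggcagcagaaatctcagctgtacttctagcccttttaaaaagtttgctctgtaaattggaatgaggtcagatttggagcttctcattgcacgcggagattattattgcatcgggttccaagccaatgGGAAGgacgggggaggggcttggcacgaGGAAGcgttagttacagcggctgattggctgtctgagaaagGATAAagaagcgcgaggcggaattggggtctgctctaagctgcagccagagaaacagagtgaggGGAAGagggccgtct

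Erg, an ETS factor of stem cells, megakaryocytes and endothelium, read 7.85, 7.67 and 8.23 in cMoPs, 8.07, 7.87 and 8.27 in the JS PBS arrays and 5.03 in the G32 PBS array. The other 10 arrays lay between 4.09 and 4.98, so that the G32 PBS array was the highest of the low arrays and still lay below every cMoP and JS PBS array. Erg fell by 3.26 from JS PBS to JS DT (9.61-fold, SE 0.21, adjusted p = 1.18e-08) and was 3.30 higher in cMoPs than in Ly6Cneg monocytes (SE 0.21, adjusted p = 4.35e-09). Of 10 endothelial genes, 2 were lower in JS DT than in JS PBS arrays, where 10.0% of all genes were. The mean level of the 10 was 5.08 to 5.27 in JS PBS, 4.97 to 5.11 in cMoPs and 4.88 to 4.99 in JS DT.

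Cdk6, a D-type cyclin-dependent kinase that is also a transcriptional cofactor in stem cells, was less uniform among the low arrays than Cd34, with an SD of 0.76 against 0.24 over the 11 arrays other than cMoP and JS PBS. It read 10.77, 10.89 and 10.92 in cMoPs and 10.47, 10.50 and 10.57 in the JS PBS arrays. DT-Ly6C+ monocytes read 8.09, 7.23 and 7.09 (JS) and 7.89 (G32), G-CSF-Ly6C+ monocytes 7.41, 7.61 and 7.63, and Ly6Cneg monocytes 8.66 (array 2), 6.83 (new) and 6.75 (pool). The G32 PBS array, at 5.81, was the lowest of all 17 and lay 2.08 below the G32 DT array. Cdk6 fell by 3.04 from JS PBS to JS DT (8.23-fold, SE 0.37, adjusted p = 1.51e-05) and was 3.45 higher in cMoPs than in Ly6Cneg monocytes (SE 0.37, adjusted p = 1.92e-06). Its difference between DT and PBS was of opposite sign on the G32 arrays, and the difference of the 2 differences was -5.12 (SE 0.74, adjusted p = 0.000396).

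**Figure D1:**
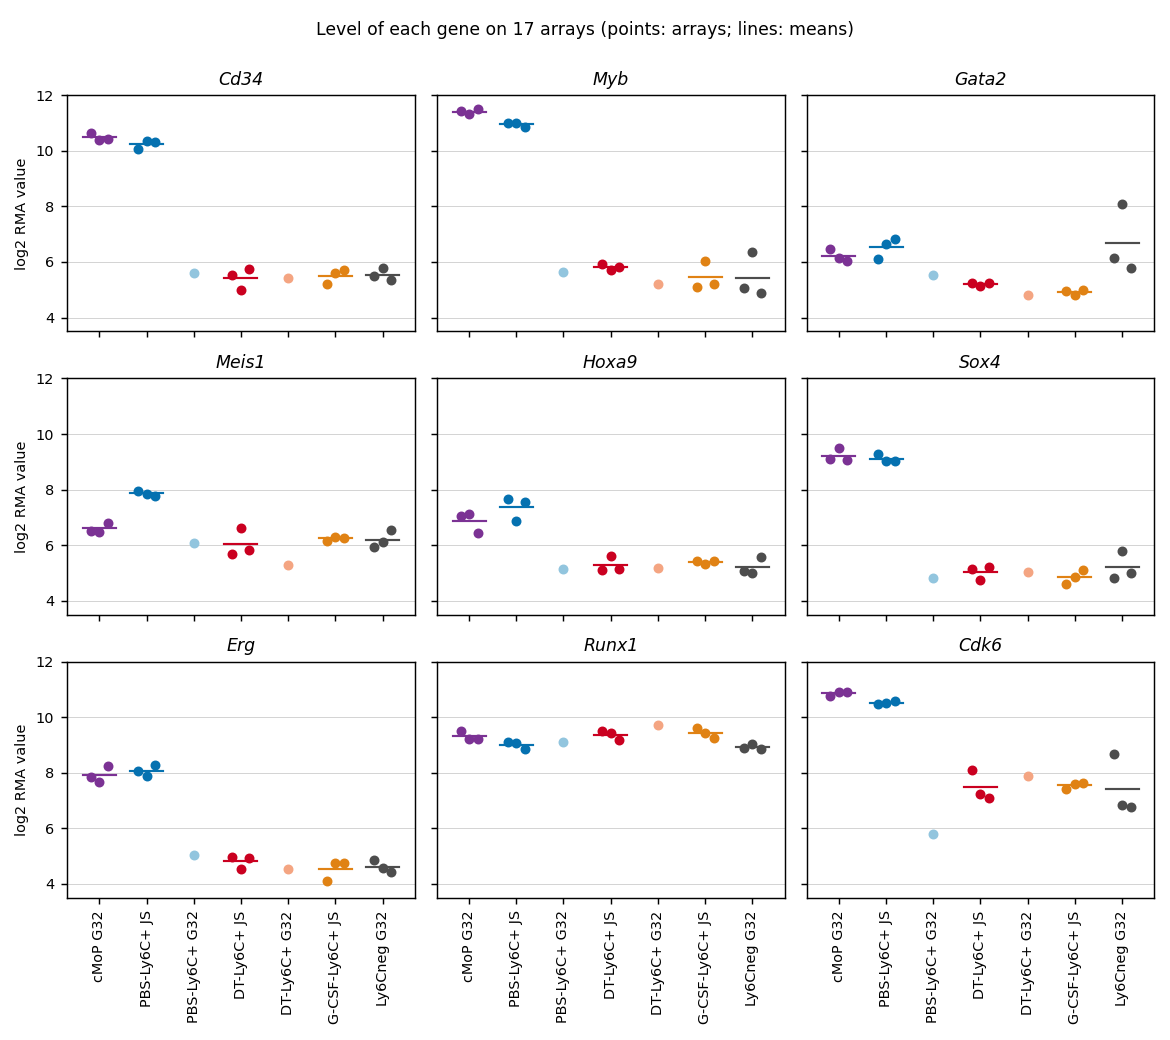
Log2 value of each of the 9 genes (y axis) on every array, grouped on the x axis by cell population and array-name series, with points for arrays and lines for means of groups of 3. Cd34, Myb, Sox4, Erg and Cdk6 are high in the cMoP and JS PBS arrays and low elsewhere, Meis1 and Hoxa9 follow at smaller range, Gata2 is highest in 1 Ly6Cneg array, and Runx1 lies between 8.84 and 9.73 on all 17 arrays.

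Hoxa9 and its cofactor Meis1, which together maintain immature myeloid cells, had a smaller range. Hoxa9 read 7.03, 7.13 and 6.44 in cMoPs, 7.64, 6.88 and 7.56 in the JS PBS arrays and 5.15 in the G32 PBS array, and the other 10 arrays lay between 4.99 and 5.62. It fell by 2.08 from JS PBS to JS DT (4.22-fold, SE 0.23, adjusted p = 6.09e-06) and was 1.66 higher in cMoPs than in Ly6Cneg monocytes (SE 0.23, adjusted p = 3.26e-05). The cMoP and JS PBS arrays overlapped for this gene, and neither overlapped with the remaining arrays.

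Meis1 was the gene in which the JS PBS arrays, not the cMoPs, stood alone at the top. It read 7.96, 7.85 and 7.78 in the JS PBS arrays against 6.52, 6.48 and 6.80 in cMoPs, 6.09 in the G32 PBS array and 5.94, 6.11 and 6.55 in Ly6Cneg monocytes. The JS DT arrays read 5.69, 6.61 and 5.82, the G32 DT array 5.30, and the G-CSF arrays 6.16, 6.29 and 6.27, so that 1 DT array and 1 Ly6Cneg array overlapped with the cMoPs. From JS PBS to JS DT Meis1 fell by 1.82 (3.54-fold, SE 0.21, adjusted p = 8.19e-06). Between cMoPs and Ly6Cneg monocytes the difference was 0.40 (95% interval -0.05 to 0.85, adjusted p = 0.168), and between cMoPs and the 1 G32 DT array it was 1.30 (SE 0.30, adjusted p = 0.0049).

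Gata2, the GATA factor of stem cells that is also used by mast cells and basophils, was highest in a single Ly6Cneg array. The Ly6Cneg arrays read 6.15 (array 2), 8.08 (new) and 5.79 (pool), the cMoPs 6.48, 6.15 and 6.03, the JS PBS arrays 6.11, 6.64 and 6.84, and the G32 PBS array 5.52. The DT arrays read 5.25, 5.14 and 5.23 (JS) and 4.81 (G32), and the G-CSF arrays 4.95, 4.83 and 4.98, all below every cMoP, Ly6Cneg and PBS array. Gata2 fell by 1.32 from JS PBS to JS DT (SE 0.40, adjusted p = 0.0271), a call that was lost when any 1 of 5 of the 6 arrays was left out (adjusted p up to 0.103). Between cMoPs and Ly6Cneg monocytes its difference was -0.45 (95% interval -1.30 to 0.39, adjusted p = 0.429), and without the array named new it was 0.25, of the opposite sign.

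Of 7 mast cell and basophil genes, 6 were higher in the array named new than in the other 2 Ly6Cneg arrays. In the array named new the protease gene Cpa3 read 8.05, the IgE receptor gene Fcer1a 7.75 and the histamine synthesis gene Hdc 10.13, and the mean of the 7 measured genes of that list was 7.44 there against 5.48 and 4.98 in the other 2 Ly6Cneg arrays. The exception was the mast cell chymase gene Cma1, at 3.64 against 4.40 and 4.95. The list did not follow Gata2 everywhere, as the basophil protease gene Mcpt8 read 8.79 to 9.48 in cMoPs and Hdc read 8.22 to 8.61 in the JS DT arrays, where Gata2 was low. The list's mean was 7.07 to 7.24 in the JS PBS arrays, 5.69 to 5.77 in cMoPs, 4.91 in the G32 PBS array, 4.73 to 5.25 in the DT arrays and 4.89 to 5.09 in the G-CSF arrays. Fcer1a reached 7.75 only in the array named new and had a mean of 4.28 in the JS PBS arrays and 3.21 in cMoPs. Ms4a2 was likewise lower in JS PBS (5.25 to 5.59) than in the array named new (7.35). Cpa3 (8.51 to 8.88), Hdc (10.74 to 10.83) and Cma1 (5.20 to 5.94) were higher in JS PBS than in that array. For Mcpt8 and Prss34 the JS PBS arrays lay on both sides of the array named new. The part of these cells in the Gata2 values was not tested. In sorted bulk cells, fewer cells of a type and less RNA per cell cannot be told apart.

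**Figure D2:**
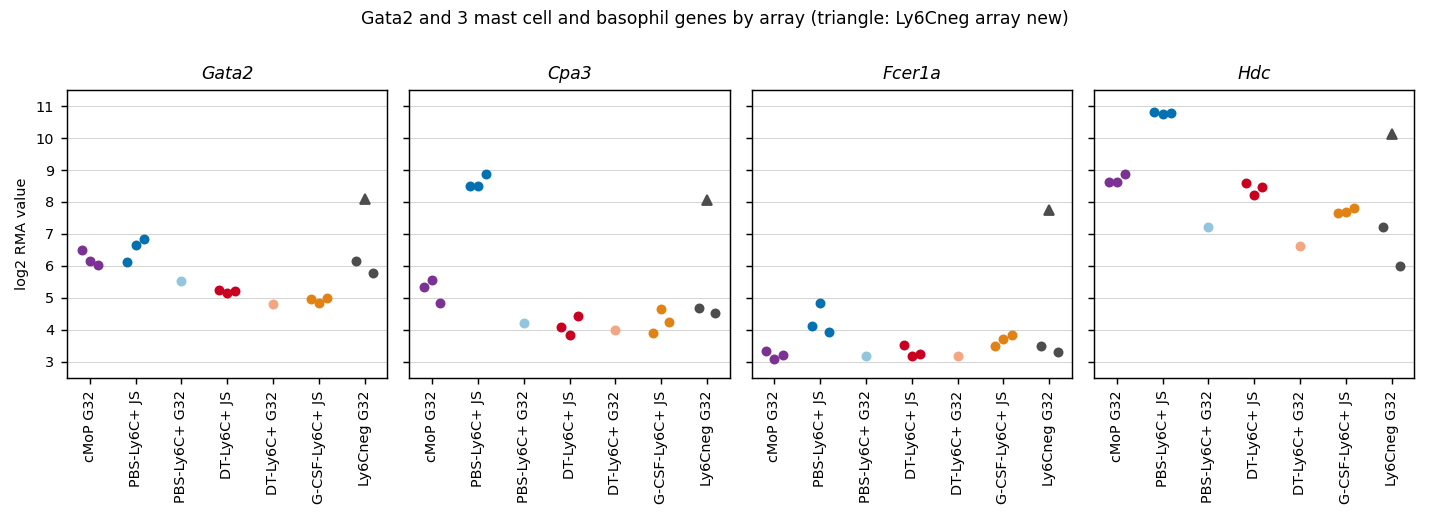
Log2 values (y axis) of Gata2 and of Cpa3, Fcer1a and Hdc, which are genes of mast cells and basophils, on each of the 17 arrays by population and array-name series, with the Ly6Cneg array named new as a triangle. That array holds the highest Gata2 (8.08) and Fcer1a (7.75) values, while Cpa3 and Hdc are also high in the 3 JS PBS arrays.

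Runx1, which acts from the emergence of stem cells to mature myeloid cells, did not follow the other 8 genes. All 17 arrays lay between 8.84 and 9.73. The JS PBS arrays read 9.09, 9.06 and 8.84 and the G32 PBS array 9.12, against 9.49, 9.42 and 9.19 (JS) and 9.73 (G32) in DT-Ly6C+ monocytes and 9.59, 9.44 and 9.24 in G-CSF-Ly6C+ monocytes, so every DT and G-CSF array lay above every PBS array. The difference from JS PBS to JS DT was 0.37 (95% interval 0.07 to 0.67, adjusted p = 0.0845), and from JS PBS to G-CSF it was 0.43 (SE 0.14, adjusted p = 0.0453, but up to 0.16 when 1 array was left out). Ly6Cneg monocytes read 8.90, 9.03 and 8.86 and cMoPs 9.52, 9.21 and 9.21, which differed by 0.38 (95% interval 0.08 to 0.68, adjusted p = 0.0513). Over the 17 arrays its correlation with each of the other 8 genes lay between -0.59 and -0.11, whereas the 28 pairs among those 8 had a median of 0.89 (0.38 to 0.99). These correlations are descriptions over arrays that share groups. RefSeq gives Runx1 2 starts, and the window of the upstream one (chr16:92826025-92826324, minus strand) is shown because it alone of the 13 windows of the 9 genes holds the RUNX letters 2 times, both in its last bases as ACCACA on the opposite strand, with AACTG 2 times and GGAAG once.
Runx1 promoter, upstream start: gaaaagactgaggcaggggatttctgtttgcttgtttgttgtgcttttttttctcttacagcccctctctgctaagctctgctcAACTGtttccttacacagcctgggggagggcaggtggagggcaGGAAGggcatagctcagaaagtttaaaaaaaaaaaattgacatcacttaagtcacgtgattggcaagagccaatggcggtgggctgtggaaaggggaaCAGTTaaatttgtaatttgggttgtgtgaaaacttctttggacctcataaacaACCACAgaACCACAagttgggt

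All 9 genes had a promoter window in RefSeq, 13 windows in all, with 3 starts for Erg and 2 each for Gata2 and Runx1. GATAA or its reverse was found in 4 of the 13 windows (1 each of Cd34, Hoxa9, Sox4 and Erg) and in 25.4% of 32851 windows of all genes, and GGAAG in 8 of 13 against 71.4%. AACTG was in 2 of 13 against 44.8%, TGTGGT in 2 against 16.8%, and TGACAG in 1 against 19.2%. A match is a match of letters only, and these counts are descriptions.

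In the comparison of DT with PBS, 8 of the 9 genes were lower in JS DT than in JS PBS arrays, while Runx1 did not pass the test. The JS PBS arrays do not show the marker levels of their label. An effect of CD11c+ cell depletion and a difference in the cells sorted therefore cannot be told apart in this comparison. Of all genes, 10.0% were lower in this comparison at an adjusted p under 0.05, and the median difference was -3.04 for the 9 genes and 0.02 for all genes. On the G32 arrays, 1 DT and 1 PBS, the differences of these 8 genes were smaller or of the other sign, with values (DT minus PBS) of -0.16 for Cd34, -0.44 for Myb, 0.21 for Sox4, -0.48 for Erg, 0.03 for Hoxa9, -0.79 for Meis1, -0.71 for Gata2 and 2.08 for Cdk6. For Runx1 the difference was 0.61, above that on the JS arrays. With no term for the series, so that the 4 DT arrays were set against the 4 PBS arrays, 6 genes were lower, and the difference was -1.76 for Cdk6 (adjusted p = 0.195) and -1.17 for Gata2 (adjusted p = 0.0595). For 8 of 9 genes the G32 PBS array was nearer to the JS DT mean than to the JS PBS mean, the exception being Runx1. The share over all genes was not counted, and by correlation across all genes that array was also nearer to JS DT. The difference between the 2 series in the DT minus PBS difference passed the test for 6 genes, all more negative on the JS arrays (Cd34 -4.66, Myb -4.72, Sox4 -4.29, Erg -2.78, Hoxa9 -2.11 and Cdk6 -5.12), against 5.36% of all genes. For Meis1 it was -1.04 (SE 0.42, adjusted p = 0.165), for Gata2 -0.61 (SE 0.80, adjusted p = 0.776) and for Runx1 -0.24 (SE 0.28, adjusted p = 0.74). With the G32 DT and PBS arrays in place of the JS arrays none of the 9 genes passed the test by limma (lowest adjusted p = 0.317, for Cdk6), and each G32 group is a single array that is assumed to vary like the others.

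G-CSF-Ly6C+ monocytes lay near DT-Ly6C+ monocytes on most of these genes. Against JS PBS, 8 genes were lower (9.80% of all genes were) and Runx1 was higher (9.13% of all genes were), with differences of -4.75 for Cd34, -5.52 for Myb, -4.26 for Sox4, -3.54 for Erg, -2.96 for Cdk6, -1.96 for Hoxa9, -1.62 for Meis1 and -1.61 for Gata2. This comparison shares its PBS arrays with the one above, so the 2 are not independent. As those JS PBS arrays do not show the marker levels of their label, an effect of growth factors and a difference in the cells sorted cannot be told apart here. With no term for the series, 4 genes were called by limma, and Runx1 was not among them (adjusted p = 0.12). Between G-CSF and DT arrays directly, 0 of 9 genes passed the test in limma, 0 had an unadjusted p under 0.05 and 0.0631% of all genes passed. The differences ran from -0.36 for Myb (SE 0.30) to 0.20 for Meis1 (SE 0.21). The 95% interval of the difference was -0.34 to 0.48 for Cd34, -0.66 to 0.30 for Sox4 and -1.13 to 0.56 for Gata2. The comparison shares its DT arrays with that of DT and PBS.

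cMoPs carried higher levels of 6 genes than Ly6Cneg monocytes (Cd34, Myb, Sox4, Erg, Hoxa9 and Cdk6), where 19.4% of all genes were higher, and of 7 genes than the G32 DT array (these and Meis1), where 9.04% were. These comparisons share the cMoP arrays. The monocyte list had a mean of 8.97 to 9.89 in the Ly6Cneg arrays, lowest in the array named new, and 11.18 in the G32 DT array. Other cell types in the Ly6Cneg arrays are described below, and their part in these differences was not tested. The median difference of the 9 genes was 3.30 and 2.97, against -0.07 and -0.05 for all genes. Against the DT array the differences were 5.04 for Cd34 (SE 0.27), 6.20 for Myb (SE 0.43), 4.19 for Sox4 (SE 0.32), 3.37 for Erg (SE 0.29), 2.97 for Cdk6 (SE 0.52) and 1.69 for Hoxa9 (SE 0.33), all of them resting on 1 DT array. For Gata2 it was 1.41 (SE 0.56, adjusted p = 0.111). Ly6Cneg monocytes differed from that DT array in 1 gene of 9, Runx1, which was lower by 0.80 (SE 0.20, adjusted p = 0.0215), where 7.90% of all genes differed in either direction. Gata2 was 1.87 higher in Ly6Cneg monocytes (SE 0.56, adjusted p = 0.0551), and without the array named new 1.17 higher (adjusted p = 0.0128).

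The cMoP and JS PBS arrays belong to different series, so each was set against DT arrays of its own series. The resulting differences (cMoP above DT, minus JS PBS above DT) passed the test for 0 of 9 genes in limma, with 0 under an unadjusted p of 0.05 and 4.89% of all genes passing. They were 0.23 for Cd34 (95% interval -0.49 to 0.94), 0.11 for Sox4 (-0.72 to 0.95), 0.11 for Erg (-0.65 to 0.87), -0.39 for Hoxa9 (-1.25 to 0.46) and 1.04 for Myb (-0.07 to 2.16). Meis1, for which the directly read means differed by 1.26 in favour of JS PBS, gave -0.52 (-1.30 to 0.25) in this way, and the G32 DT array differed from the JS DT mean by -0.74. An additive model gives the PBS arrays of both series 1 group term. Its differences therefore set cMoPs against a PBS level that includes the G32 PBS array (5.59 for Cd34), and not against JS PBS alone. They were 3.14 for Cd34, 2.79 for Sox4, 1.84 for Erg, 3.99 for Myb and 3.13 for Cdk6, all of which passed the test by limma. With only the arrays compared in the fit, Myb alone passed (adjusted p = 0.00819). The intervals are wide, as the comparison rests on 1 G32 DT array, and do not show that the 2 populations are alike.

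**Figure D3:**
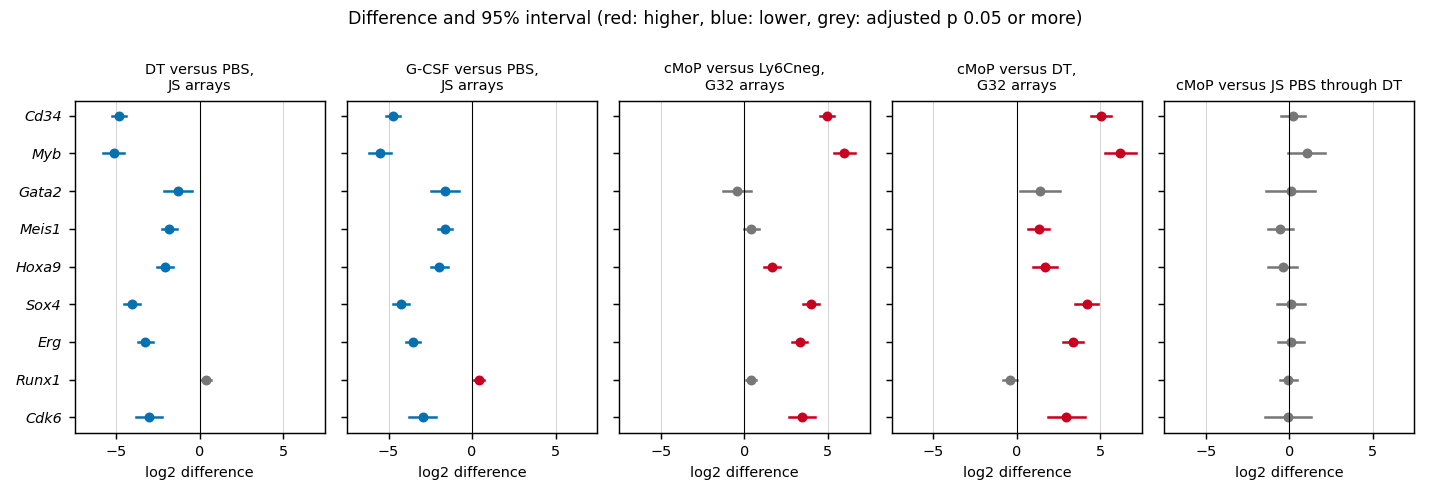
Differences on the log2 scale (x axis) with 95% intervals from limma for the 9 genes (y axis) in 5 comparisons, where red marks higher, blue lower and grey an adjusted p of 0.05 or more. In the 2 comparisons with JS PBS 8 genes lie left of 0, in the cMoP comparisons with Ly6Cneg and DT 6 and 7 genes are red, and in the comparison of cMoP with JS PBS all 9 intervals include 0.

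Other genes of the same pathways were split. Of 50 measured genes in 7 lists of partners, targets and surface genes, 14 were lower and 9 higher in JS DT than in JS PBS arrays, with a median of -0.15, where 10.0% of all genes were lower and 9.46% higher. For 21 of these 23 genes the G32 PBS array was nearer to the JS DT mean than to the JS PBS mean, the exceptions being Gata1 and Zfpm1. The 23 were picked as genes called between JS DT and JS PBS, and the share over all genes was not counted. By correlation across all genes that array was also nearer to JS DT, so the count is not read as a trait of these lists. The same lists had 14 lower and 6 higher genes in G-CSF against JS PBS (9.80% and 9.13% of all genes). They had 14 higher and 10 lower in cMoPs against Ly6Cneg monocytes (19.4% and 13.5%), and 10 higher and 7 lower in cMoPs against the G32 DT array (9.04% and 8.07%). Among 8 progenitor surface genes, 4 were lower, namely the mucin gene Muc13 (-5.65, SE 0.24), the stem cell factor receptor gene Kit (-5.34, SE 0.40), the CD133 gene Prom1 (-2.19, SE 0.18) and the costimulatory receptor gene Cd27 (-1.96), and Cd93 was higher (1.06). Flt3, the receptor of Flt3L, differed by -0.01 (SE 0.27, adjusted p = 0.988). Kit read 10.85 to 11.05 in JS PBS, 9.39 to 9.92 in cMoPs, 8.2, 10.28 and 8.95 in the Ly6Cneg arrays, and 4.79 to 6.24 on all DT, G-CSF and G32 PBS arrays, so it was high in the Ly6Cneg arrays in which Cd34 was low. Between cMoPs and Ly6Cneg monocytes Kit differed by 0.50 (SE 0.40, adjusted p = 0.383), while Muc13 (3.78) and Cd93 (2.57) were higher in cMoPs and Flt3 was lower (-3.03, SE 0.27).

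From JS PBS to JS DT, the median difference of the GATA, HOX, RUNX and SoxC lists lay between -0.26 (GATA and heptad) and 0.36 (RUNX and core-binding factor). That of the MYB family, coactivator and target list was -0.35. Of 11 GATA and heptad partners, Gfi1b (-1.26), Mecom (-0.93), the GATA cofactor gene Zfpm1 (-0.86) and Gata1 (-0.58) were lower in JS DT and Lyl1 was higher (0.94), and of 10 HOX and TALE genes Hoxa7 was lower (-0.69) and Pbx3 higher (0.88). Among 4 RUNX and core-binding factor genes the corepressor gene Cbfa2t3 (1.09) and Runx3 (0.58) were higher, the first of them also in G-CSF (1.19) and lower in cMoPs than in Ly6Cneg monocytes (-1.67). Neither of the 2 other SoxC genes, Sox11 (0.12) and Sox12 (-0.28), passed the test, so Sox4 was the sole SoxC gene called in this comparison.

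Of 6 MYB family, coactivator and target genes 2 were lower and 1 higher in JS DT, and of 9 CDK6 partners and inhibitors 3 were lower and 3 higher. Of all genes, 10.0% were lower and 9.46% higher. Myc, a proliferation factor and MYB target, fell by 2.96 from JS PBS to JS DT (SE 0.21, adjusted p = 5.37e-08) and Mybl2, a cell cycle relative of Myb, by 1.93 (SE 0.21), whereas Bcl2 differed by -0.17. Ccnd2, the cyclin that activates CDK6, fell by 3.6 (SE 0.19), Cdk4 by 1.74 (SE 0.20) and Ccnd1 by 0.85, while the CDK inhibitor genes Cdkn1a (2.52, SE 0.18) and Cdkn1b (0.58) and the CDK6 substrate gene Rb1 (1.31) were higher. In cMoPs against the G32 DT array the same 3 leading genes were Ccnd2 (5.03, SE 0.27), Cdkn1a (-3.19, SE 0.26) and Cdk4 (2.08, SE 0.29). Ccnd2 read 8.58 to 9.27 in the Ly6Cneg arrays, near the 9.07 to 9.31 of JS PBS, where Cdk6 was low.

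The genes whose 17 values most resembled those of the 9 were drawn from 3374 candidates that spanned at least 2 log2 units, and the likeness is a description. Cd34, Sox4 and Myb were each among the 3 nearest genes of the other 2, with r between 0.99 and 0.993, and Ms4a3, a gene of granulocyte and monocyte progenitors, reached 0.993 with Cd34. Cdk6 was nearest to Nucks1 (0.973), Ipo11 (0.971) and Ppat (0.969), and Hoxa9 to Muc13 (0.955), Mgam (0.952) and Aspn (0.949). Meis1 was nearest to Ctla2a (0.919), Slco3a1 (0.907) and Il1r1 (0.905), and Gata2 to Fchsd2 (0.907), Stat4 (0.90) and Satb1 (0.894). Erg was nearest to Cd34 (0.989), Adgrl4 (0.985) and Myb (0.983). Runx1 had the weakest neighbours, with B3gnt8 at 0.88, Gamt at 0.874 and Mgst3 at 0.845. Runx1 itself spans less than the 2 log2 units asked of candidates, so genes of a like small range were left out.

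Early granule and cell cycle genes were high on the same arrays as most of the 9 genes. Mpo, the granule enzyme of granulocyte-monocyte progenitors, read 12.99 to 13.05 in cMoPs, 12.15 to 12.23 in the JS PBS arrays and 5.97 to 7.49 on all other arrays, and it fell by 5.66 from JS PBS to JS DT (SE 0.17, adjusted p = 4.18e-12). Cell cycle genes had a mean level of 10.19 to 10.27 in cMoPs, 9.53 to 9.63 in JS PBS and 7.16 to 7.76 elsewhere. The 2 populations differed in other lists, as the neutrophil list had a mean of 10.57 to 10.63 in JS PBS and 5.01 to 5.39 in cMoPs, and the T cell list 7.05 to 7.10 and 4.86 to 5.25. The Ly6Cneg arrays had the highest levels of the NK cell (6.32 to 7.83), B cell (5.99 to 7.60) and dendritic cell (6.72 to 7.64) lists. The part of any of these cells in the values of the 9 genes was not tested.

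**Figure D4:**
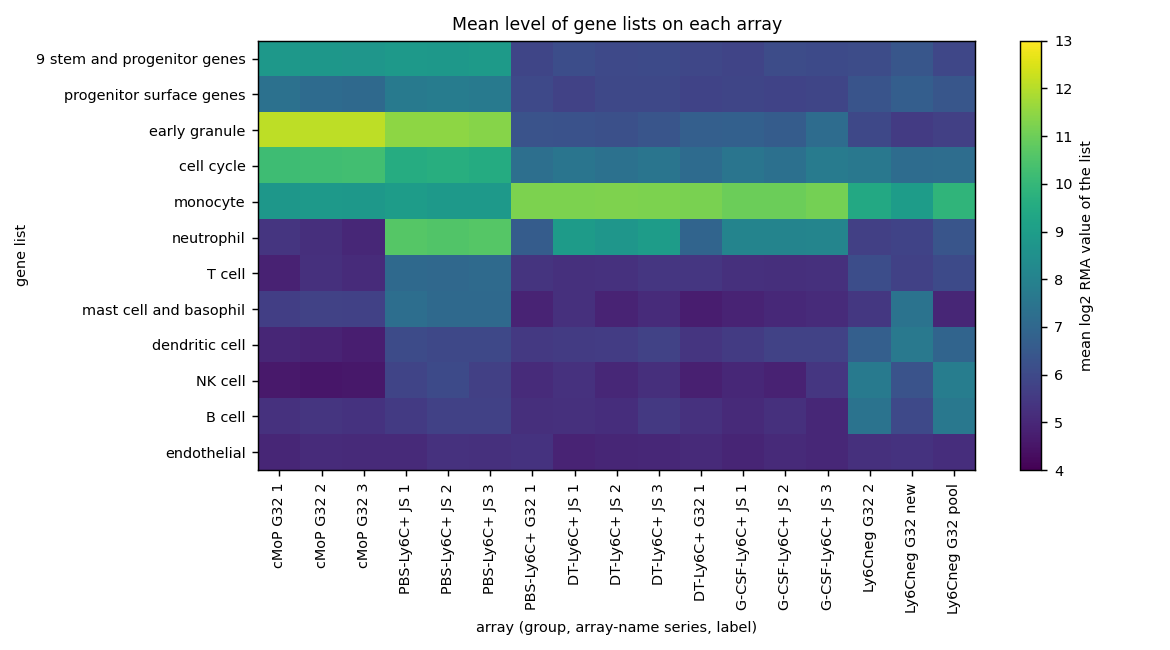
Mean log2 level (colour scale) of the 9 genes and of 11 other gene lists (rows) on each array (columns, by population, array-name series and label). The 9 genes are high on the 6 arrays in which the early granule and cell cycle lists are high, the 3 cMoP and 3 JS PBS arrays, and these 2 populations differ in the neutrophil list (10.57 to 10.63 in JS PBS against 5.01 to 5.39 in cMoPs).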

How the data were processed

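Total RNA of sorted cells was hybridised to Affymetrix mouse gene arrays, and the deposited log2 values are the authors' RMA output from oligo (version not given in the sources used here), a procedure that corrects background, quantile-normalizes the arrays and summarises 41345 probe sets. No background or probe-level values were used here, so a value near the floor cannot be told from absence, and the number of arrays limits the precision. Array medians were 5.31 to 5.53. Of the probe sets, 23521 carried 1 gene symbol in the array annotation, 1820 several and 16004 were unnamed here, and the single-symbol probe set with the highest mean stood for each of 22180 genes (21994 matched by identifier in RefSeq, GRCm38.p6). limma 3.58.1 (R 4.3.3) fitted 1 mean for each of 7 combinations of group and array-name series to all 17 arrays (10 residual degrees of freedom), with empirical Bayes and Benjamini-Hochberg adjustment over all genes, and a gene was called at an adjusted p under 0.05. The model was tested on simulated data.

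The 9 genes and all lists were chosen with earlier results of these data known. Named beside the 9 genes were, per list and comparison, up to 3 called genes with the largest difference, with Kit, Flt3 and Mpo always, and the 3 genes nearest to each in Pearson r. Cd27, Cd93, Gata1, Zfpm1, Bcl2, Ccnd1, Cdkn1b, Rb1, Sox11, Sox12 and the mast cell and basophil genes were named after their values were seen. Promoters came from RefSeq (Python 3.11.15). Alternatives covered the model, the arrays included, dim genes, probe sets, normalization, weights and single arrays.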

Additional observations from a re-analysis of the deposited data

Results flagged for a closer look

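In the 4 PBS-Ly6C+ arrays, the gap between the G32 array and the nearest other array, as a share of the range of the group, exceeded the 95% critical value of Dixon's test for 4 samples in 6 of the 9 genes. The ratio was 0.942 for Cd34, 0.972 for Myb, 0.944 for Sox4, 0.875 for Erg, 0.901 for Meis1 and 0.981 for Cdk6, with the G32 array the lowest each time. In the 4 DT-Ly6C+ arrays only Hoxa9 exceeded it, where JS array 2 was the highest with a ratio of 0.844. Chance alone passes this value in about 1 of 20 groups, and 18 groups were examined. These groups are not independent, as the genes share arrays and most of them rise and fall together. The share of all genes that exceed the value was not counted, so the count is not read as a trait of the 9 genes.

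The DT minus PBS difference was not the same in the JS and the G32 arrays for 6 genes by the interaction term of the limma model, with a difference of differences of -4.66 for Cd34, -4.72 for Myb, -2.11 for Hoxa9, -4.29 for Sox4, -2.78 for Erg and -5.12 for Cdk6. The G32 side is 1 array of each group.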

How the results depend on the processing

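Of 1170 values of single genes under other settings, 33 lost a call, 22 gained one and 44 turned sign, 40 of these in differences that passed the test in neither setting. The other 4 were Cdk6 in cMoP against JS PBS under an additive model of group and series (3.13), and Hoxa9 (0.029), Sox4 (0.21) and Cdk6 (2.08) for DT against PBS with the G32 arrays in place of the JS arrays, a setting chosen after seeing the data in which 0 of 9 genes passed. The additive model pools the PBS arrays of both series, so its values for cMoP against JS PBS do not describe JS PBS alone. It called 5 genes there and 3 in Ly6Cneg against DT. In DT against PBS under this limma model, Cdk6 lost its call (-1.76, adjusted p = 0.0924) and Runx1 gained one (0.43, adjusted p = 0.0311). With group means and no series term, 6 genes were called in DT against PBS, without Cdk6 and Gata2, 4 genes were called in G-CSF against PBS and 2 in Ly6Cneg against DT. With only the arrays compared, 1 gene was called in cMoP against JS PBS (Myb) and 0 in Ly6Cneg against DT. Ly6Cneg against DT gave 2 with a filter on dim genes, 0 after a further quantile normalization, 2 with array weights and 2 to 3 when 1 Ly6Cneg array was left out. When 1 array was left out, 7 to 8 genes were called in DT against PBS, 8 to 9 in G-CSF against PBS, 6 to 7 in the comparison of the series, and 6, 7, 0 and 0 in cMoP against Ly6Cneg, cMoP against DT, G-CSF against DT and cMoP against JS PBS. With the JS array number as a replicate block, 8, 9 and 0 genes were called in DT against PBS, G-CSF against PBS and G-CSF against DT. Same-numbered arrays correlated at 0.00012 to 0.0895 in their deviations from the group means, and 5 of 9 arrays correlated best with their own number. The cause of these changes was not tested.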
